A study of Mus musculus with 4 samples.

Results

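The cells described here are mouse spermatids in which the RNAs of the transition proteins and protamines filled a large part of the transcriptome and in which Tnp1 RNA was still abundant relative to Prm2 RNA. They were chosen from a droplet-based single-cell RNA table of testis cells by their own counts. A barcode was taken when it had at least 500 detected genes and at most 10% mitochondrially encoded transcripts, when Tnp1, Tnp2, Prm1 and Prm2 together (here called the gate RNAs) made up at least 10% of its UMI, and when Tnp1 and Prm2 together had at least 50 UMI. UMI are the unique molecular identifiers that count captured transcripts. The Tnp1 share, which is Tnp1 UMI divided by Tnp1 plus Prm2 UMI, had to be at least 0.15, and at most 2 UMI were allowed over 6 Sertoli cell genes. This gave 3882 of the 29968 barcodes that passed the first filters (13%, exact 95% interval 12.6 to 13.3%), out of 32273 in all, and they are called high-share spermatids below. Because the gate RNAs chose the cells, their values are a description and support nothing. The same holds for genes that move along with them.

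In the last part of sperm formation, round haploid spermatids elongate, condense their nuclei and build a flagellum. Histones are first removed with the help of histone acetylation, transition proteins (Tnp1, Tnp2) then occupy the DNA for a time, and protamines (Prm1, Prm2) finally pack it into the sperm head. Transcription ends during this condensation, so many messages for the sheath, the dense fibres and the protamines are made early, stored bound to proteins and translated later. PHF7, found in male germ cells, carries PHD fingers and is a ubiquitin ligase for histones, and BRDT is a testis bromodomain protein that binds acetylated histones. The study asked how the former acts on the latter and on the replacement of histones.

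Per the labels, 4 samples of dissociated testis were made from C57BL/6 mice at postnatal day 63. There were 2 of the genotype Phf7 f/f, with floxed alleles and no Cre named, and 2 of Phf7 tKO, which is Stra8-Cre:Phf7 f/f. All 4 thus carry the floxed allele, and Stra8-Cre deletes it in germ cells that turn on Stra8. The labels do not say that the samples of a genotype are separate animals. The table pools the samples under barcode suffixes 1 to 4, and the labels do not say which suffix is which sample, so the genotypes were not compared, no test between samples was possible and no p-value is given. Suffixes are unassigned libraries here and their values are given 1 by 1. Intervals are exact 95% intervals that cover counting error only.

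High-share spermatids were found in every library. Suffix 1 had 962, suffix 2 had 791, suffix 3 had 1097 and suffix 4 had 1032, which were 12.6%, 11.4%, 14.8% and 13% of the kept barcodes of each. They held 24.1% of all UMI in the table, with a median of 10386.5 UMI (range 921 to 74430) and 2027.5 genes per cell. The median by suffix ran from 9187 UMI (suffix 3) to 11688.5 UMI (suffix 1). The mitochondrially encoded share was very low, with a median of 0.0087%, and 1417 cells had no such UMI at all. Of the members, 99 had a barcode sequence that also occurred under another suffix, and 4 shared it with another member. No doublet caller was used, so doublets must be assumed to remain.

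The label was checked against markers that the gate did not use. Of the 4 markers given for these cells, Tnp1 and Tnp2 are gate RNAs, and Hmgb4 and Tex37 are not. All levels below are UMI per 1000000 UMI outside the gate RNAs, a scale on which the rule's own transcripts cannot push other genes down. Summed over the cells, Hmgb4 stood at 9503 (9473 to 9534) and Tex37 at 2554 (2538 to 2570), and every cell had Hmgb4 UMI. In barcodes with at least 20 UMI of Leydig cell markers, which should lack both, the levels were 203 and 55.2, and in barcodes with at least 10 UMI of macrophage markers they were 1436 and 293. Both sets had under 10% gate RNAs. The macrophage-marker set held more RNA of 8 round spermatid markers than high-share spermatids did (734 against 279 in sum). Its deepest barcode had 140325 UMI. It is therefore not a plain background, and the part that came from spermatids was not tested. After thinning each cell to 1000 UMI, 99.7% of high-share spermatids had a Hmgb4 UMI and 86.5% a Tex37 UMI, against 19.1% and 5.8% of Leydig-marker barcodes and 45.5% and 12.8% of macrophage-marker barcodes. Without thinning, these shares were 100% and 99.9% against 63.6% and 26.6% in the former and 75.6% and 29.8% in the latter, at median depths of 10386.5, 7522 and 2425 UMI.

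Markers of other cells were low. The summed level of 8 round spermatid markers was 279 (260 to 337 over suffixes), and 43 cells had at least 20 UMI of them. The 7 Leydig markers summed to 4.94, the 8 Sertoli markers outside the gate to 4.6 with 2 of them at 0, the 5 endothelial markers to 6.29 and the 4 haemoglobin genes to 0.131 with 2 at 0. The round spermatid sum was spread over all 8 genes, with Spaca4 the highest at 56.5. The sums of myoid, macrophage, lymphocyte and late spermatocyte markers each came mostly from few genes. Actg2, a smooth muscle actin, made 1017 of the 1021 of 5 myoid markers, Apoe and C1qb made 143 and 41.4 of the 199 of 7 macrophage markers, Trbc2 made 19.2 of the 19.5 of 5 lymphocyte markers, and Ybx2, which binds stored messages in spermatids, made 392 of the 536 of 8 late spermatocyte markers. Actg2 UMI were found in 98.5% of the cells. The label of elongating spermatids was kept as given. For Hmgb4 and Tex37 the check used Leydig-marker and macrophage-marker barcodes only. It does not set these cells apart from other spermatids, and both genes were also found in the neighbouring sets described below.

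The gate RNAs come from 2 places in the genome (GRCm38, GENCODE M21). Tnp1 lies alone at chr1:73015074-73015909 on the minus strand. Tnp2 (chr16:10787936-10788660), Prm3 (chr16:10790505-10790914), Prm2 (chr16:10791380-10796134) and Prm1 (chr16:10796326-10805839) share 1 strand of a cluster of 17904 bases. Hmgb4 lies at chr4:128260212-128260957 and Tex37 at chr6:70913087-70918927, also on the minus strand. The 250 bases before the RefSeq transcript start (GRCm38.p6) are shown for Tnp1, Prm1 and Hmgb4. These carry a motif with palindromic ends that the promoters of Tnp2, Prm2 and Tex37 lack in the same window. The motif, TGANNTCA on either strand, has the ends of the cyclic AMP response element TGACGTCA. It was chosen after the sequences were seen and is a description, and binding to it was not tested. Capitals mark it, and in Hmgb4 also ATTGG, the reverse of CCAAT. The RefSeq starts differ from the GENCODE ones, and the whole Prm1 window lies inside the GENCODE interval given for Prm1.
Tnp1, chr1:73015900-73016149, minus strand: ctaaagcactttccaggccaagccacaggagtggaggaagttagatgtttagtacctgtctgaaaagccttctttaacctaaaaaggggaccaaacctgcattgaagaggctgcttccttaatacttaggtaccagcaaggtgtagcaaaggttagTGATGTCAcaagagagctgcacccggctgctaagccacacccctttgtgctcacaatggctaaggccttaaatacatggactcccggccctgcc
Prm1, chr16:10796824-10797073, minus strand: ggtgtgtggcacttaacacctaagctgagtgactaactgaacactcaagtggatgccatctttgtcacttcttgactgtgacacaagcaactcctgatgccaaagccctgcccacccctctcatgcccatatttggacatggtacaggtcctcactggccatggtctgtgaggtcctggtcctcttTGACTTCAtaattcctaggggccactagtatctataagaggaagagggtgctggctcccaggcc
Hmgb4, chr4:128260896-128261145, minus strand: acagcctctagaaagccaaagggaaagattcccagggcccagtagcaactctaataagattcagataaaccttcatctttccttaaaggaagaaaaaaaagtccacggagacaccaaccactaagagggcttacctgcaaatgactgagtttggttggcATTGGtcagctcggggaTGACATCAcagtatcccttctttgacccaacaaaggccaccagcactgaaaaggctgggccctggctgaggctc
The match began at position -94 in Tnp1 (TGATGTCA), -64 in Prm1 (TGACTTCA) and -74 in Hmgb4 (TGACATCA), where -1 is the base before the start. TGANNTCA occurred in 11.9% of 32851 RefSeq promoters of this length. The full element TGACGTCA occurred in 1.55% of them and in none of the 6 promoters examined. CCAAT on either strand occurred in 33.8%.

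The Tnp1 share divided cells rich in gate RNAs into groups with few cells between them. Of such cells with at most 2 Sertoli UMI, 2866 had a share under 0.025, each bin of 0.025 between 0.05 and 0.15 held 111 to 137, and the fullest later bin, 0.25 to 0.275, held 1035. High-share spermatids had a median share of 0.258 (0.15 to 0.489). The medians by suffix were 0.285, 0.247, 0.267 and 0.236, and no cell of suffix 2 was above 0.325. The 50 cells with shares from 0.15 to under 0.16 had a Hmgb4 level of 4962 and a Tex37 level of 1633, and the 49 cells just outside, from 0.14, had 4805 and 1830. At the border in gate RNA content, 129 cells at 10 to under 11% had a Hmgb4 level of 6256 and 140 cells at 9 to under 10% had 6061. The summed level of the 4 genes used for low-gate cells below was 248 just inside the share border and 130 just outside. With 50 to 59 Tnp1 plus Prm2 UMI there were 4 cells, with a Hmgb4 level of 4775 and a Tex37 level of 2122, and with 40 to 49 UMI there were 3, with 3356 and 839. With 2 Sertoli UMI 104 cells were members (Hmgb4 9060), and 55 cells with 3 were not (Hmgb4 9280). In all, the Sertoli limit left out 291 cells.

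**Figure D1:**
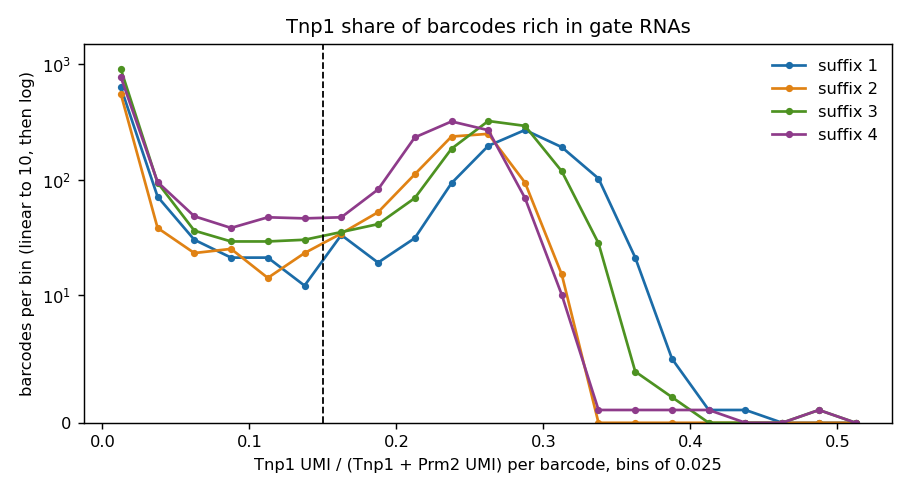
Number of barcodes rich in gate RNAs (y axis, linear to 10 and logarithmic above) in bins of 0.025 of the Tnp1 share (x axis), 1 line per barcode suffix, with the limit of 0.15 dashed. All 4 libraries have a first peak under 0.025, a trough, and a second peak between 0.225 and 0.3, which lies farther right in suffix 1.

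There were 3 sets of cells that served as neighbours. Middle-share cells passed the same rule except for a Tnp1 share from 0.05 to under 0.15 (472 cells, median 9220.5 UMI). Low-share cells had a share under 0.05 (3164 cells, median 5952.5 UMI) and were added after the data had been seen, as a description. Low-gate cells had 2 to under 10% gate RNAs, at least 5 UMI over Acrv1, Spaca1, Izumo1 and Spaca4, and the same Sertoli limit (1465 cells, median 3084 UMI, with 10% of them above 30205). As a description, Tnp1 made up 2.16% of the UMI of high-share spermatids, 0.961% in middle-share, 0.11% in low-share and 0.572% in low-gate cells. Tnp2 made up 4.1%, 2.35%, 0.525% and 1.37%. Prm1 made up 4.34%, 5.3%, 2.01% and 1.19%, and Prm2 6.2%, 8.75%, 12% and 2.38%. Per cell, high-share spermatids held 256.5 Tnp1, 486 Tnp2, 514 Prm1 and 735 Prm2 UMI, against 4.35, 8.24, 11.8 and 24.7 in Leydig-marker barcodes.

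Outside the gate RNAs, Smcp, which encodes a cysteine-rich protein of the mitochondrial sheath, had the highest level at 12584, or 124 UMI per cell. In suffixes 1 to 4 it stood at 11993, 12612, 12526 and 13234, so the libraries lay close together. Hmgb4 followed, and then Fabp9 (8617), a testis fatty acid binding protein, Dbil5 (8587), a relative of the acyl-CoA binding protein, and Gpx4 (8334), the selenoprotein peroxidase that also builds the mitochondrial sheath. Eif1 (7023) encodes a translation initiation factor, Oaz3 (6997) the testis antizyme, Meig1 (6916) a protein needed to build the sperm tail, Odf2 (6242) an outer dense fibre protein, Gstm5 (5705) a glutathione transferase and Gapdhs (5687) the glyceraldehyde phosphate dehydrogenase of sperm. Gsg1 (6993), Mlf1 (6211), Dnajb3 (5184), Pebp1 (4989), Spa17 (4496) and Tcp11 (4341) completed the named genes among the 20 highest, and 3 more carry predicted or clone names. These 20 made up 13.3% of UMI outside the gate, 218 genes made up 50%, and 19099 genes had at least 1 UMI.

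Hmgb4 encodes an HMG-box protein of spermatids. Its level in the high-share spermatids of suffixes 1 to 4 was 8925, 9675, 9276 and 10200. In middle-share cells it was 2570, 3544, 3232 and 3764, in low-share cells 685, 681, 709 and 792, and in low-gate cells 3866, 4121, 3994 and 4101. The high-share values lay above all values of the other sets, and low-share values lay below all of them. The ratio to middle-share cells was 1.5 on the log2 scale (1.47 to 1.52), or 2.82-fold, and the ratio to low-gate cells was 1.24 (1.23 to 1.26). Tex37 was ordered the same way except that the low-gate level was under the middle-share level. It stood at 2461, 2462, 2565 and 2709 in high-share, 1014, 1266, 1273 and 1504 in middle-share, 764, 819, 848 and 790 in low-gate and 199, 186, 224 and 256 in low-share cells. No sets overlapped. The Tex37 ratio to middle-share cells was 0.96 (0.92 to 1), just under the 2-fold limit, and to low-gate cells 1.67 (1.64 to 1.70).

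**Figure D2:**
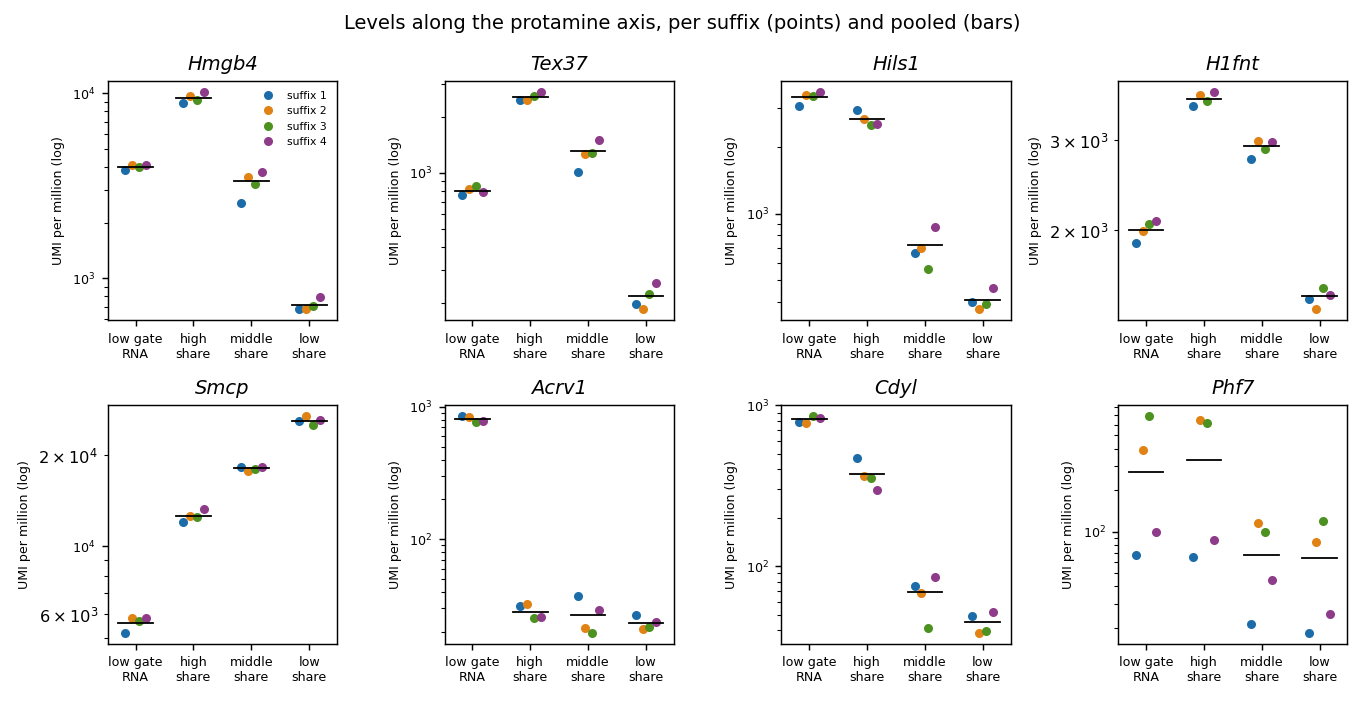
Levels of 8 genes (y axes, UMI per 1000000 UMI outside the gate RNAs, logarithmic) in low-gate, high-share, middle-share and low-share cells (x axes), with 1 point per barcode suffix and a bar for the pool. Hmgb4, Tex37 and H1fnt have their highest points in high-share spermatids, Smcp climbs from left to right, Acrv1 is high only in low-gate cells among the 4 sets, and the suffixes of Phf7 lie far apart.

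Against low-gate cells, fewer genes were higher than lower. A gene was called when its pooled level differed 2-fold or more and each of the 4 suffixes had the same direction, among genes with at least 50 UMI over both sets. Of 10736 genes tested, 435 were higher in high-share spermatids (4.05%) and 5607 lower (52.2%), and the median gene had a log2 ratio of -1.12. The split depends on the scale. Higher genes were 7.2% of the calls as measured and 53.7% when ratios were taken relative to the median gene, with 2655 higher and 2290 lower. Taking all UMI as denominator moved every ratio by -0.18 and left 260 higher genes, and a mean over cells, in which deep low-gate barcodes weigh no more than others, gave 692. Counts for gene lists are therefore given on both scales. Of the macrophage markers, Apoe (143 against 44) and C1qb (41.4 against 19, not called without suffix 1) were higher, and the list summed to 184 to 211 over suffixes against 49.4 to 167. Of 8 round spermatid markers, some of which chose the low-gate cells, 8 were lower (279 against 4246 in sum), as were 3 of 6 early spermatocyte markers (36.4 against 91.7) and 3 of 7 late ones (536 against 759). The part of these cells' RNA in the ratios was not tested.

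Acrosome and fusion genes were the list farthest below. Of 25 tested, 24 were lower and 0 higher, beside 52.2% lower of all 10736 genes, with a list median of -3.36. With ratios taken relative to the median gene, 19 were lower, beside 2290 of all genes, and the list median was -2.24. Low-gate cells were chosen by genes of this kind, among them Izumo1 of this list. The count, median and rank of the list are therefore in part fixed by that choice and are a description. Acrv1, the acrosomal protein SP-10, stood at 31.2, 32.3, 25.2 and 25.7 in the high-share spermatids of suffixes 1 to 4 and at 859, 844, 767 and 777 in low-gate cells. The groups did not overlap. That ratio, -4.84, was in part fixed by the choice of low-gate cells, as were those of Spaca1 (-4.61), Izumo1 and Spaca4. Zp3r (17.8 against 392, -4.46), a zona-binding protein of the acrosomal matrix, and Dcst1 (7.68 against 154, -4.32), a sperm membrane protein, were not used for that choice. Agfg1, which acts in acrosome formation, was the exception at 88.7 against 106.

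Lists for the dense fibres, the sheath and sperm energy supply had medians near 0, at 0.14 and -0.16. Their counts are to be read beside 4.05% higher and 52.2% lower of all 10736 genes, and 2655 higher and 2290 lower relative to the median gene. In the list of outer dense fibre and fibrous sheath genes, 3 of 18 were higher and 6 lower, and relative to the median gene 9 were higher and 1 lower. The higher ones were Oaz3 (6997 against 2994), Akap4 (2760 against 1204), the main scaffold of the fibrous sheath, and Odf3b (121 against 53.3). Fsip2 (9.53 against 101, -3.41), Fsip1 (-2.08), Ropn1l (861 against 3543, -2.04) and Odf3 (219 against 645, -1.56) were lower. In the glycolysis and mitochondrial sheath list, 4 of 22 were higher and 10 lower, and relative to the median gene 11 and 2. Gapdhs (1.31), Smcp (12584 against 5606, 1.17), Gpx4 (1.09) and Gpi1 (859 against 414, 1.05), which encodes glucose phosphate isomerase, were higher, and Pdha2 (29.6 against 321, -3.44), a testis pyruvate dehydrogenase subunit, and Vdac2 (-2.19) were lower. The higher genes in these lists were named after their values were seen. With all UMI as denominator, Smcp, Gpx4, Gpi1 and Odf3b fell under 2-fold.

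Flagellar axoneme genes were lower in 18 of 28 and higher in 0, and relative to the median gene 6 were higher and 9 lower. Over all 10736 genes, 52.2% were lower as measured, and relative to the median gene 2655 were higher and 2290 lower. Ribc1 (20.7 against 208, -3.33), Tekt2 (62 against 488, -2.98) and Tekt4 (55.1 against 393, -2.83), which build and line microtubule doublets, were the farthest below. Of 20 genes of the manchette, the microtubule skirt that shapes the head, and of intraflagellar transport, 15 were lower and 1 higher, and relative to the median gene 3 and 2. Clip1 (23.8 against 236, -3.31), a microtubule tip protein, was lower, and Spata6 (3143 against 1522, 1.05), needed for the head to tail junction, was higher but fell under 2-fold with all UMI as denominator. In the list of the perinuclear theca, the shell around the nucleus, 3 of 15 were higher and 5 lower, and relative to the median gene 8 and 4. Spem1 (1231 against 537), Actrt1 (122 against 54.2) and Spatc1 (360 against 164) were higher, the last 2 not with all UMI as denominator, and Actl7b (113 against 893, -2.98) and Ccin (117 against 572, -2.29) were lower.

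Genes for nuclear proteins were called in both directions, to be read beside 4.05% higher and 52.2% lower of all 10736 genes. Relative to the median gene, 2655 of all genes were higher and 2290 lower. Of 13 tested genes for nuclear basic proteins and histone variants outside the gate, 3 were higher and 7 lower, and relative to the median gene 5 and 1. Prm3 (2660 against 1038, 1.36), the acidic protein of the protamine cluster, H2afb1 (1941 against 764, 1.35), a short H2A variant, and Hmgb4 were higher. H3f3b (146 against 1322, -3.18) and H3f3a (280 against 1151, -2.04), which both encode histone H3.3, were lower. For H3f3b the values by suffix were 138, 174, 141 and 140 against 1415, 1331, 1055 and 1408, with no overlap. Hils1, a linker histone of spermatids, stood at 2672 against 3352 and H1fnt, another, at 3614 against 1998, and neither was called. In the list of chromatin remodelling, 1 of 21 was higher and 13 lower, and relative to the median gene 2 and 5. Tssk6 (2395 against 1029), a kinase needed for condensation, was higher. Hdac1 (11.8 against 73.4, -2.64), the nucleosome remodeller Smarca5 (-2.37), the deubiquitinase Usp7 (25.7 against 132, -2.36) and Brdt (15.4 against 78, -2.34) were lower. Phf7 was called neither way.

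Lists of genes that act on RNA and transcription held lower genes at shares near or above the 52.2% of all genes. Of all 10736 genes 4.05% were higher, and relative to the median gene 2655 were higher and 2290 lower. Of 24 mRNA storage genes 14 were lower and 0 higher, and relative to the median gene 4 and 6. Pabpc1 (137 against 1014, -2.89), a poly(A) binding protein, and Tdrd6 (-2.91), of the chromatoid body, were lower, and Ybx2 stood at 392 against 349. Of 15 genes of spermatid transcription 11 were lower and 1 higher, and relative to the median gene 4 and 1. Sox5 (46.9 against 317, -2.76) was lower, and Spz1 (3584 against 1764, 1.02), a bHLH-zip factor, was higher but fell under 2-fold with all UMI as denominator. Among kinases, phosphatases and calcium genes 10 of 21 were lower and 1, Prkar2a (1015 against 400), a regulatory subunit of protein kinase A, was higher, and relative to the median gene 7 and 6. The sperm calcium channel genes Catsper3 (-4.29), Catsper1 (-3.20) and Catsper2 (-3.15) were the farthest below. Ubiquitin genes were lower in 9 of 25 and higher in 2, Ubqlnl and, not with all UMI as denominator, Rnf133, and relative to the median gene 1 was lower and 9 were higher. In the list of Tex and Spata genes 11 of 26 were lower and 5 higher, and relative to the median gene 7 and 12. Spata32 (315 against 93.1, 1.76) led the higher ones, followed by Tex37, Spata3, Spata18 and Spata6, and Spata9 (-3.87) was the lowest. Of 9 mitochondrially encoded mRNAs 6 were lower, and relative to the median gene 0 were called.

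**Figure D3:**
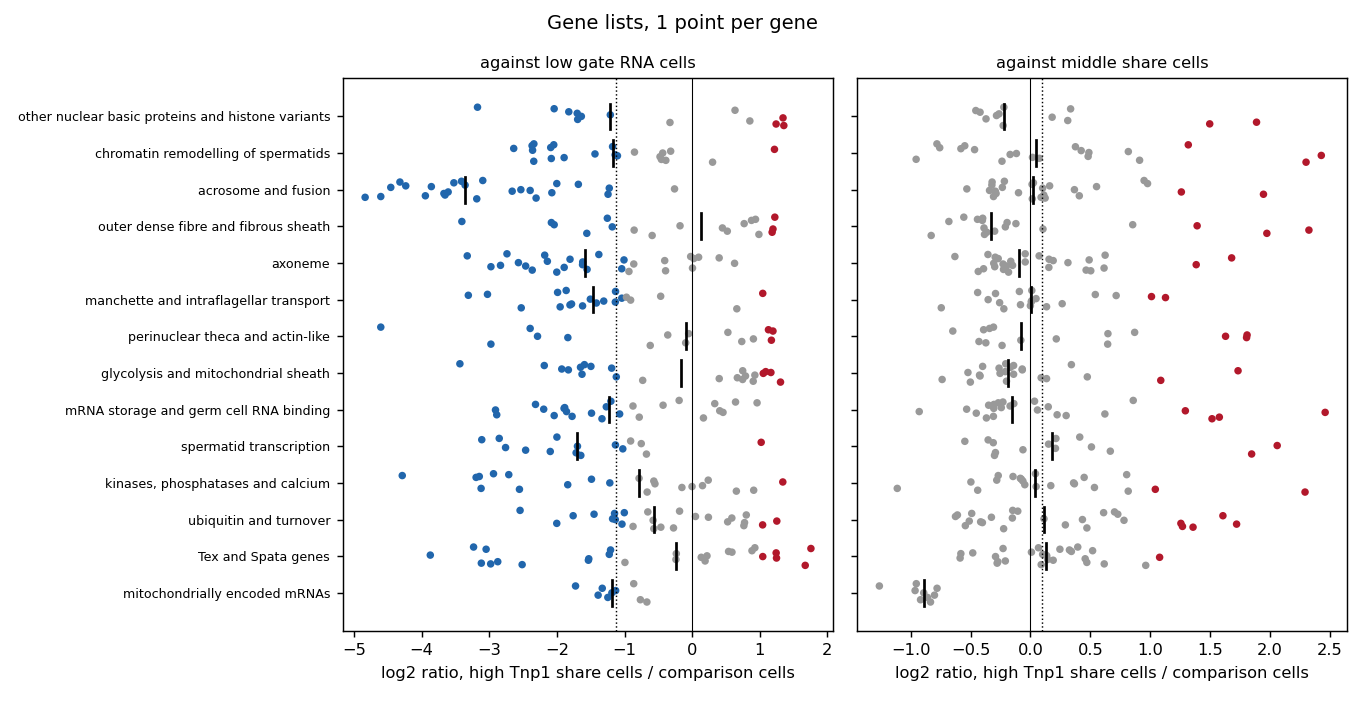
Log2 ratio of levels in high-share spermatids to low-gate cells (left) and to middle-share cells (right) for each gene of 14 lists (y axis), 1 point per gene, red for genes called higher and blue for genes called lower. Black bars are list medians, the solid line is 0 and the dotted line the median of all tested genes. Acrosome genes lie farthest left in the left panel, and the right panel has red points in 13 lists and no blue point.

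Outside the lists, the genes of at least 200 UMI with the highest ratios to low-gate cells were modest in level. Klk1 (24.9 against 4.65, 2.42) and Klk1b3 (1.89) encode kallikrein proteases of 1 cluster with near-copies, so the counts of each are uncertain. Cyp2a12 (125 against 26.4, 2.24) is a cytochrome P450, Cby3 (580 against 126, 2.20) a relative of chibby, Tmod4 (79.3 against 18.2, 2.12) a tropomodulin, Defb33 (487 against 122, 2.00) a defensin, Bmp7 (15.5 against 4.14, 1.90) a growth factor and Ccl5 (14.3 against 3.63, 1.97) a chemokine. Their UMI were spread over cells: the 10 richest cells held 3.98% of those of Klk1 and 4.95% of those of Ccl5. Rsf1os1 (2.13), Faxc (1.91), Def6 (1.91) and Cd164l2 (1.86) completed the set. At the other end, Col27a1 (0.444 against 26, -5.87), Pkd1 (-5.76), Nim1k (2.01 against 102, -5.66), Cldn34c4 and Cldn34c3, Cd109, Cd46, Adam34, Kbtbd7, Dusp2 and Zfp692 ranged down from -4.91. Cd46 (5.22 against 166, -4.99) encodes a complement regulator that in mice sits on the acrosome. Among abundant transcripts, chosen after their values were seen, Fam209 went from 2189 in low-gate cells to 97.2, and Dkkl1 from 2920 to 713.

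Against middle-share cells the picture was turned around. Of 9297 genes, 1207 were higher in high-share spermatids (13%) and 46 lower (0.495%), and the median gene was at 0.10. Of the 46 lower genes, 44 had under 200 UMI in all. The middle-share set is small, with 3858133 UMI outside the gate against 38287469, so genes of low level are poorly measured in it. Requiring 200 UMI left 857 higher and 2 lower. No list gene was lower in the 14 lists. The smallest counts of higher genes, to be read beside the 13%, were 1 of 26 Tex and Spata genes and 0 of 9 mitochondrially encoded mRNAs, and the largest shares were 5 of 25 ubiquitin genes and 3 of 15 theca genes.

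Hils1 was 3.7-fold higher than in middle-share cells. Its levels in suffixes 1 to 4 were 2941, 2665, 2524 and 2549 in high-share spermatids and 666, 702, 564 and 870 in middle-share cells, and the groups did not overlap. Cdyl, a chromodomain corepressor, stood at 469, 363, 352 and 297 against 75.5, 68.3, 41.2 and 85.8, a log2 ratio of 2.43 (2.25 to 2.61). It too did not overlap. With Hmgb4, Phf7 (2.30) and Cul4b (15.5 against 6.22, 1.32), a ubiquitin ligase scaffold, these were the higher nuclear and chromatin genes. Brdt, in contrast, stood at 15.4 against 18.1 and was not called.

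In the structural lists, the share of higher genes lay on both sides of that of all genes. Of the dense fibre and sheath list 3 of 18 were higher, of the axoneme list 2 of 28, of the theca list 3 of 15, of the acrosome list 2 of 25 and of the glycolysis and mitochondrial sheath list 2 of 22, beside 13% of all genes. The list medians were -0.33, -0.10, -0.08, 0.02 and -0.18. Among the higher genes, Meig1 stood at 6916 against 2157 (1.68), Akap3 of the fibrous sheath at 532 against 106 (2.33), Odf3 at 219 against 55.7 (1.97), Ropn1 at 1737 against 662 (1.39) and Tekt5 at 121 against 46.4 (1.38). In the theca list Cylc1 (302 against 86, 1.81), Actrt3 (119 against 34, 1.81) and Ccin (117 against 37.8, 1.63) were higher, and in the acrosome list Spaca7 (246 against 63.8, 1.95) and Izumo1 (30.4 against 12.7, 1.26). Ldhc, the lactate dehydrogenase of sperm, was at 4272 against 2009 (1.09) and Spata19, of the mitochondria, at 3964 against 1192 (1.73). Smcp was not among them: it stood at 12584 against 18076 (-0.52), as did Oaz3 at 6997 against 10295, Gapdhs at 5687 against 8056 and Spz1 at 3584 against 5242, each lower in high-share spermatids by less than 2-fold.

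Among regulators of RNA, Papolb, the testis poly(A) polymerase, was at 568 against 103 (2.46), Ybx1 at 695 against 243 (1.52) and Ybx3 at 37.1 against 12.4 (1.58), which bind messages. Piwil2 was called higher at 1.91 against 0.778, on 3 UMI in middle-share cells and with an interval that includes 0 (-0.31 to 3.60). Sox30 (38.9 against 9.33, 2.06), a transcription factor of round spermatids, Fhl5 (879 against 244, 1.85), the coactivator of CREM, and the kinases Tssk1 (672 against 137, 2.29) and Tssk4 (1.04) were higher. In the ubiquitin list Rnf148 (1.72), Fbxo24 (1.61), Rnf151, Ube2b (375 against 146, 1.36), which is the RAD6 ubiquitin-conjugating enzyme, and Ube2d2a (1.27) were higher. Rimbp3 (1.13) and Cep131 (1.01) of the manchette list and Spata4 (1.08) completed the calls. Tssk4 (0.90) and Cep131 (0.86) were not called without suffix 1, nor Cep131 (0.91) without suffix 4 and Piwil2 without suffix 2. Among abundant genes, chosen after their values were seen, Fam71f1 (1373 against 197, 2.80), Cypt1 (1330 against 208, 2.68), Spcs2 (1879 against 353, 2.41) and Cypt12 (1975 against 470, 2.07) had large ratios. Cypt genes are near-copies of each other and their counts are uncertain.

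The highest ratios by rule rest on few counts. Kif15 (5.64 against 0.259, 4.44), a mitotic kinesin, and Ada (5.43 against 0.259, 4.39), adenosine deaminase, had 1 UMI each in middle-share cells, and Arhgap8 (3.97), Ilkap (3.36) and H2-Aa had 2. Chga (14.7 against 1.3, 3.50), chromogranin A, had 5, as did Zfp947 (3.21) and Asb5 (2.85), while Upp2 (3.29) had 3 and Ubtd2 (2.96) had 6. The interval for Kif15 ran from 1.95 to 9.75. March8 (47 against 6.22, 2.92), a membrane ubiquitin ligase, was the firmest with 24. The UMI of Chga in high-share spermatids were spread over 475 cells and those of Kif15 over 187. Cd74 and H2-Aa (3.34) encode parts of antigen presentation. The 401 UMI of Cd74, against 0 in middle-share cells (a ratio of 3.75 when the floor of 3 counts over the set stands for the 0), came from 25 cells, and 96.3% of them from 10. Leaving out 1 library moved several of these by over 1.5 times: Kif15 stood at 2.45 and Arhgap8 at 2.95 without suffix 3, Ada at 2.34 without suffix 2, and Cd74 at 2.19 and H2-Aa at 2.28 without suffix 1. Among lower genes, Ftl1 (7.23 against 29, -2.00), the ferritin light chain, and Sfr1 (5.22 against 12.7, -1.28), a recombination factor, passed the naming rule. In suffixes 1 to 4 the Ftl1 level in middle-share cells was 24.2, 8.53, 73.6 and 9.77, highest in suffix 3. Without suffix 3 both ratios were -0.90 and neither gene was called.

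High-share spermatids were not uniform when put in order by their content of gate RNAs. The rule that chose the cells uses this content, so the calls along it are a description and support nothing. This order was added after the data had been seen. The lowest quintile of cells had 10 to 14.1% gate RNAs and the highest 19.2 to 25.2%. Of 7110 genes, 30 were higher in the highest quintile (0.422%) and 2111 lower (29.7%), with a median of -0.56. Higher genes were 1.4% of the calls as measured and 44.2% relative to the median gene. Median depth was 7477 UMI in the lowest quintile and 12122 in the highest, and the libraries were unevenly spread: the highest quintile held 412 cells of suffix 1, 55 of suffix 2, 218 of suffix 3 and 92 of suffix 4. Quintiles cut within each suffix gave 16 higher and 2109 lower genes, and leaving out the deepest 5% of cells gave 30 and 1949. The main genes are given by suffix.

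Cst13, a cystatin, was among the 12 lowest ratios. From the lowest to the highest quintile its level went 1568, 391, 115, 73.6 and 56.7 in suffix 1, and 750, 110, 69, 55.3 and 36.1 in suffix 2. In suffix 3 it went 1050, 223, 82.7, 66 and 54.5, and in suffix 4 it went 697, 107, 78.5, 65.5 and 53.7. Every step went down in every library, and most of the drop came before the third quintile. Cdyl also went down at every step but later, with 1183, 836, 408, 157 and 57.5 in suffix 1 and 896, 373, 149, 64.7 and 50.2 in suffix 4. Odf3 went from 732 to 39.5 in suffix 1, from 491 to 30.6 in suffix 2, from 572 to 27.7 in suffix 3 and from 493 to 28.2 in suffix 4. The pooled log2 ratios of the highest to the lowest quintile were -4.25 for Cst13, -4.30 for Cdyl and -4.09 for Odf3.

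Hmgb4 and Tex37 went the other way. Pooled over libraries, Hmgb4 stood at 7498, 9041, 10163, 10803 and 9984 in the 5 quintiles, with its peak in the fourth in each library. Tex37 stood at 1893, 2329, 2672, 2934 and 2918. Smcp went from 9426 to 15229 and Oaz3 from 5434 to 8357, with every step higher in every library, but neither reached 2-fold. Meig1 peaked early, in the first or second quintile of each library, and was lower by the last, as with 8018, 7990, 7375, 5239 and 4106 in suffix 4.

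**Figure D4:**
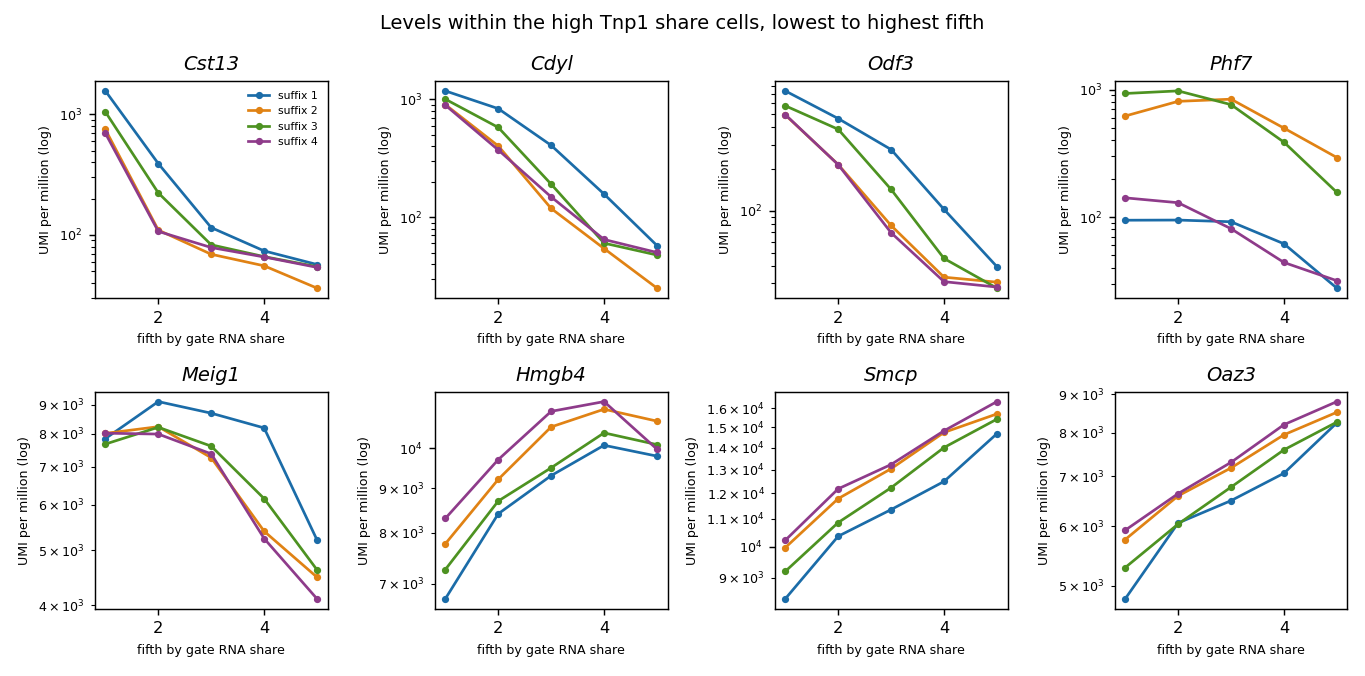
Levels of 8 genes (y axes, UMI per 1000000 UMI outside the gate RNAs, logarithmic) in high-share spermatids divided into quintiles by gate RNA share, lowest to highest (x axes), 1 line per barcode suffix. Cst13, Cdyl and Odf3 go down at every step in all 4 libraries, while Smcp and Oaz3 go up.

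The lists held in this order as follows, to be read beside 0.422% higher and 29.7% lower of all 7110 genes. Relative to the median gene, 819 of all genes were higher and 1032 lower. All 8 tested mitochondrially encoded mRNAs were lower in the highest quintile, on the measured scale and relative to the median gene, with a list median of -1.81, and mt-Co1 stood at 70.2 against 256. The 10 richest cells held 18.7% of the mt-Co1 UMI. Of 25 acrosome genes 20 were lower (10 relative to the median gene), led by Spaca7 (48.7 against 483, -3.31). Among 12 nuclear basic protein and histone variant genes 3 were lower, Hils1 (986 against 5003, -2.34), H3f3a (199 against 429) and H2afv, and relative to the median gene 1 was lower and 3 were higher. H1fnt stood at 3703 against 3189. Of 15 chromatin genes 6 were lower (3 relative to the median gene), and of the 18 dense fibre and sheath genes 4 were: Akap3 (87 against 1201, -3.79), Ropn1l (-2.69), Fsip2 and Odf3. Relative to the median gene, 4 of these 18 were lower and 8 higher. Ybx1 (151 against 2019, -3.74) and Tssk1 (115 against 1438, -3.64) had the largest drops in their lists, and Ldhc fell from 7252 to 1938. Among genes with at least 200 UMI, the farthest below were Ccdc185 (17 against 678, -5.32) and Cntn1 (6.01 against 218, -5.18), a neural adhesion protein. They were followed by Osbpl7, Dcdc2c, Faiml, Fbxo47, Trim80 (39 against 660, -4.08), Rassf1 and Fam71b. Kallikreins led the higher ones with at least 200 UMI, with Klk1 at 37.3 against 15.1 (1.30) and Klk1b8 at 629 against 279 (1.17). Rpl37, Klk1b3, Cyp2a12, Klk1b9 and Tex13a followed, at 1.01 to 1.1. Under that limit, Usp44 stood at 12.6 against 3.42 (1.89). With all UMI as denominator 11 genes were higher and Rpl37, Klk1b3, Cyp2a12, Klk1b9 and Tex13a were under 2-fold. Without suffix 1, Rpl37 (0.99), Cyp2a12 (0.89), Klk1b9 (0.99), Tex13a (0.88) and, among lower genes, H2afv (-1.18) were not called, nor Klk1b3 (0.97) without suffix 3. Osbpl7 and Dcdc2c stood at -6.70 and -6.92 without suffix 1.

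Ordering by the Tnp1 share, which the rule also uses, separated fewer genes and is likewise a description. Of 6722 genes, 11 were higher in the quintile with the highest share (0.164%) and 168 lower (2.5%). The genes ranked next had at least 200 UMI. Faiml (13.9 against 64.3, -2.21), Fam71b (-1.97), Cst13 (104 against 394, -1.92), Ccdc185 (-1.90), Cntn1 (-1.86), Cyp51 (10.7 against 37.3, -1.80), which makes sterols, Adam6b (-1.79), Cdyl (143 against 460, -1.69), Mphosph6 (-1.62), Tmigd3 (-1.56), Trim80 (-1.51) and Acot12 (-1.49) were the farthest below. Rps27rt (1.23) and Cypt14 (1.02), which both have near-copies, were the named higher genes. Rps27rt was at 0.61 without suffix 1 and Cypt14 at 0.94 without suffix 2, and neither was then called. Without suffix 1 Ccdc185, Cntn1, Trim80 and Acot12 stood lower, at -2.54, -2.71, -2.12 and -2.29, and Cdyl at -2.31. Hmgb4 stood at 10871 against 7636 and was not called. The libraries were again uneven, with 429, 44, 276 and 28 cells in the highest quintile. The course was not the same in each library. Cdyl went 319, 803, 840, 623 and 175 in suffix 1 but 483, 296, 147, 72.4 and 56.6 in suffix 4. Smcp was higher in the lowest quintile than in the next in every library. It stood at 14682 against 10352 in suffix 1 and at 13156 against 12762 in suffix 4. Quintiles cut within each suffix gave 3 higher and 512 lower genes, and leaving out suffix 1 gave 258 lower.

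Phf7 (chr14:31237689-31251317, minus strand) had a pooled level of 334 in high-share spermatids. The libraries were far apart, at 65.4, 644, 616 and 87.6 in suffixes 1 to 4, a spread of 9.85-fold. Suffixes 2 and 3 were high, and suffixes 1 and 4 low. UMI of Phf7 were found in 40.9%, 90.4%, 83.8% and 45.5% of the cells of each. In Leydig-marker barcodes the levels were 6.22, 43.8, 59.2 and 10.6, which were lower in each library, with suffixes 2 and 3 again above suffixes 1 and 4. In macrophage-marker barcodes they were 25.8, 212, 296 and 59.4, also lower in each library but nearer. These barcodes are not a plain background, because their summed level of 8 round spermatid markers was 734, against 279 in high-share spermatids. After thinning to 1000 UMI, Phf7 was found in 21.2% of high-share spermatids, 4.14% of Leydig-marker and 14.5% of macrophage-marker barcodes. The deleted part of the gene is not stated in the labels, so 3' counts do not check it, and no suffix was assigned from these values. In middle-share cells the levels were 21.4, 115, 99.1 and 44.7, each lower than in the high-share spermatids of the same library, and the pooled ratio was 2.30 (2.13 to 2.48). Libraries made up unequal parts of the sets, with 179 of the 472 middle-share cells from suffix 4. The pooled ratio therefore also carries differences between libraries, which its interval does not cover. In low-gate cells they were 67.9, 390, 696 and 99.3. Within high-share spermatids, from the lowest to the highest quintile by gate RNA content, Phf7 went from 94.5 to 27.7, from 620 to 293, from 932 to 156 and from 142 to 31.7, each library lower at the end. The pooled ratio of -2.34 also carries the uneven spread of libraries. The lowest quintile held 155 cells of suffix 1 and 224 of suffix 2, and the highest 412 and 55. In suffix 2 it was highest in the third quintile, at 841.

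Brdt (chr5:107331159-107387058, plus strand) was low. Its levels by suffix were 15.3, 17.5, 14.6 and 14.6, and 92.5, 83.2, 72.1 and 64.8 in low-gate cells, with no overlap. In Leydig-marker barcodes the pooled level was 13.9, so the level in high-share spermatids was near that in cells that should lack the gene. After thinning to 1000 UMI, 1.52% of high-share spermatids had a Brdt UMI and 1.66% of Leydig-marker barcodes, against 13.4% and 9.86% without thinning. Of macrophage-marker barcodes, 3.26% had a Brdt UMI after thinning. Whether the Brdt UMI of high-share spermatids were free RNA or expression was not tested.

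**Figure D5:**
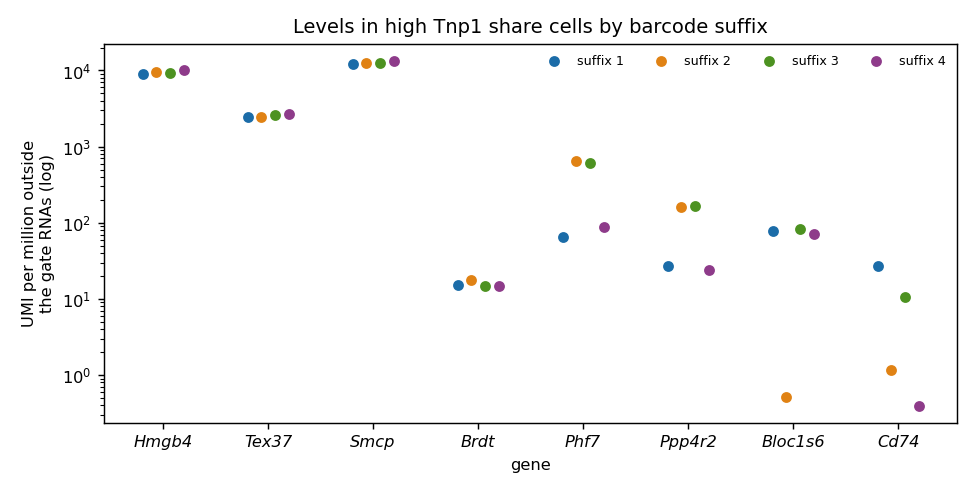
Levels of 8 genes in high-share spermatids (y axis, UMI per 1000000 UMI outside the gate RNAs, logarithmic), 1 point per barcode suffix. Hmgb4, Tex37, Smcp and Brdt agree between suffixes, Phf7 and Ppp4r2 are high in suffixes 2 and 3, Bloc1s6 is low in suffix 2, and Cd74 comes from 25 cells.

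For most genes the libraries were alike. Of 4788 genes with at least 100 UMI in a suffix, 161 (3.36%) had a highest suffix at least 2 times the lowest, and the median ratio was 1.22. Suffix 1 was highest in 97 of the 161 and suffix 4 lowest in 80. Without suffix 1 there were 32 such genes, and without suffix 4 there were 106. The widest was Bloc1s6, a subunit of the BLOC-1 complex of endosomes, at 78.7, 0.519, 82.2 and 71.1, with 4 UMI in all of suffix 2. It was low in suffix 2 in the other spermatids too, with 2.97 against 86.5 to 107 in low-gate cells and 0.855 against 10.7 to 14.1 in low-share cells. In Leydig-marker barcodes suffix 2 was at 14.6, between 11.8 and 20.2 for the others. Ppp4r2, a regulatory subunit of protein phosphatase 4, stood at 27.2, 161, 167 and 24.1, high in suffixes 2 and 3 like Phf7. In low-share cells it stood at 44.3, 329, 309 and 45.4. Dynlt1a, a dynein light chain with near-copies, was low in suffix 1 at 4.53, against 22.5 to 28.4. Erdr1 (6.26, 13.9, 7.39 and 1.89) and Dnajc17 (27.2, 5.45, 13.3 and 11.1) also differed. Cd74 (67.7-fold) and H2-Aa (7.95-fold), of antigen presentation, did so through few cells: 1 cell held all 108 Cd74 UMI of suffix 3, and 1 cell held 54.3% of the 280 of suffix 1.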

How the data were processed

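Testis cells of 4 samples were measured on the Chromium 3' v3 kit, per the labels. The authors deposited 1 table of unnormalized UMI counts over 28692 genes, written by Cell Ranger, per the file headers; bcl2fastq 2.19.1.403, Cell Ranger 3.0.2 and mm10 stand in the submitters' processing notes. Filters are not given in the sources used here. Each 3' count stands for 1 transcript, so no length scaling was made. UMI were summed per set of cells and suffix in Python 3.11.15 (numpy 2.4.6, scipy 1.17.1, pandas 2.3.3). Sets with 0 UMI took a floor of 3 counts over the set. Ratios have exact conditional binomial, levels exact Poisson and shares exact Clopper-Pearson intervals. The ratio step was tested on simulated data. Of the gene IDs, 28416 were found in GENCODE M21, and 6 of 383 list genes were not matched by symbol.

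Named genes were Tnp1, Tnp2, Prm1, Prm2, Hmgb4, Tex37, Phf7 and Brdt, the 12 highest and 12 lowest called ratios with at least 200 UMI per comparison (predicted genes unnamed, and 1 gene not reported here), up to 4 per list with the largest ratios, the 8 widest over suffixes and the 20 highest levels. The members and lists were chosen with earlier results of these data known. Alternatives were other gates, filters, denominators, fold limits and leaving out each suffix. The planned order by Tnp1 share was joined by one by gate RNA share.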

Additional observations from a re-analysis of the deposited data

How the results depend on the processing

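No paired analysis was possible because the columns carry suffixes and not the replicate numbers of the labels. No called ratio of a named gene changed direction: of 3607 alternative values of 250 such ratios, 3359 were still called. Counts of genes that moved by over 1.5 times are given next, with the cause not tested except where the setting itself tests fewer or more genes. With a Tnp1 share of at least 0.20, the order by Tnp1 share gave 2 higher and 272 lower genes. Without the deepest 5% of cells it gave 85 lower, and 95 genes differed 2 times between suffixes. With all UMI as denominator, 260 genes were higher than in low-gate cells and 11 in the order by gate RNAs. Requiring 200 UMI, a smaller set of genes, gave 2 lower than middle-share, 3549 lower than low-gate, 6 higher and 89 lower by Tnp1 share, and 17 higher and 1122 lower by gate RNAs. Without a filter there were 125 lower than middle-share, 27 higher and 474 lower by Tnp1 share, and 82 higher and 3340 lower by gate RNAs. A 3-fold limit gave 532 higher and 4 lower than middle-share, 71 higher than low-gate, 0 higher and 28 lower by Tnp1 share, and 1 higher and 1038 lower by gate RNAs. The mean over cells gave 692 higher than low-gate and 101 lower by Tnp1 share. Quintiles within suffixes gave 3 higher and 512 lower by Tnp1 share and 16 higher by gate RNAs. Requiring 400 UMI in a suffix left 46 genes with a 2-fold spread. Thinning to 2000 UMI raised the shares of high-share spermatids with a UMI to 100% for Hmgb4, 97.7% for Tex37 and 32.9% for Phf7 (21.2% at 1000 UMI).

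Leaving out each suffix in turn, 1118 to 1394 genes were higher and 47 to 99 lower than middle-share cells, and 427 to 439 higher and 4998 to 5332 lower than low-gate cells. By Tnp1 share 9 to 18 were higher and 120 to 258 lower, and by gate RNAs 22 to 42 and 1836 to 1984. The spread gave 32 to 149 genes, and members numbered 2785 to 3091. The 99 and the 18 came without suffix 4, the 258 and the 32 without suffix 1, and 71 genes were lower than middle-share cells without suffix 2. The middle-share set is limited by its 472 cells, and 44 of the 46 genes lower than in it had under 200 UMI.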
